A study of Mus musculus with 9 samples.

Results

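The DNA replication and S phase genes are 40 genes for origin licensing, the replisome, nucleotide supply and S phase entry, listed by gene symbol for their known roles, with earlier results of these data known. All 40 symbols had a row among the 55341 genes of the count tables, and all 40 had enough counts to be tested, as did 16250 genes in all. Messenger RNA was measured in small-intestinal crypts of male mice (C57BL/6, 8 to 12 weeks old) with or without deletion of Pcgf6. This gene encodes a Polycomb protein of the PRC1 kind, and the question of the series is how adult gut epithelium changes when it is lost. Of the 9 libraries, 2 were Pcgf6 KO and 3 were WT crypts of the Villin-CreERT2 line after tamoxifen, and 2 were Pcgf6 KO and 2 were WT crypts of the AhCre line after beta-naphthoflavone (BNF). Villin-CreERT2 is active in the intestinal epithelium once tamoxifen is given, so other cells that come along with crypts keep the gene. AhCre is switched on by BNF, an agonist of the aryl hydrocarbon receptor. The sample titles place WT mice of each line after the same agent as the KO mice. The titles give 15 days after the agent, while a second description line and the series' design text give 7 days. In addition, BNF stands in place of tamoxifen in 1 description line of Villin samples. The interval, and for that line the agent, are therefore uncertain. The labels number the libraries as replicates without saying that each came from a separate mouse, and p-values here cover only how these libraries vary, which may be technical.

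Before a cell copies its DNA, the origin recognition complex, CDC6 and CDT1 load the MCM helicase onto origins, and at the start of S phase CDC45 and the GINS complex turn the loaded helicase into a moving one. Primase and DNA polymerases then copy both strands, held to the template by the PCNA clamp, which the RFC complex loads, while ribonucleotide reductase, thymidylate synthase and thymidine kinase supply the nucleotides. In the intestine these genes are used mostly by the rapidly dividing cells of the crypt, above the crypt base and below the villus, and many of them are known targets of E2F transcription factors.

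Total counts were 7146764 and 8339149 in Villin KO, 6455098 to 7013456 in Villin WT, 9263993 and 10179884 in AhCre KO, and 10645569 and 12377921 in AhCre WT. Villin libraries had counts in 22058 to 29750 genes and AhCre libraries in 33791 to 38835. Levels are given as counts scaled to library size (CPM, the edgeR unit) after TMM scaling, and 1 count was worth 0.0646 to 0.205 CPM. Pcgf6 had 3.07 and 2.47 CPM in Villin KO, against 10.8, 12.7 and 9.44 CPM in Villin WT, with no overlap between the groups. Pcgf6 had 7.195 and 5.897 CPM in AhCre KO, against 14.1 and 10.1 CPM in AhCre WT, again with no overlap. Its fitted log2 fold change was -1.99 (SE 0.40, adjusted p = 0.022) in Villin, which passed the threshold of an adjusted p under 0.05 (edgeR quasi-likelihood test with Benjamini-Hochberg adjustment over all genes tested), and -0.89 (SE 0.40, adjusted p = 1) in AhCre, which did not. Which exons were deleted is not stated in the labels, so counts over the whole gene may include exons that remain. All 10 epithelial markers had counts in every library. The first Villin KO library (Villin KO 1) stood apart from the others for the replication genes. The main Villin results are therefore also given without it, and role medians for each Villin KO library.

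In Villin crypts, 1 of the 40 replication genes was lower in KO at an adjusted p under 0.05 and 0 were higher, while 2.88% of all genes tested were called lower and 3.33% higher. The called gene was Gins1. Fitted log2 fold changes were below 0 for 35 of the 40, against 58.5% of all genes, and their median was -0.64, against -0.18 over all genes. Without adjustment, at p under 0.05, 8 of the 40 were lower and 0 higher, against 15.4% of all genes lower and 10.7% higher. Both KO libraries lay below all 3 WT libraries for 7 of the 40 genes, namely Cdt1, Gins1, Gins2, Pola1, Rpa2, Tyms and Tk1, which is 17.5% against 19.8% of all genes. The summed level of the 40 genes was 698 and 1641 CPM in Villin KO, against 1532, 1803 and 1911 CPM in Villin WT. The first KO library was thus far below every other library, while the second lay inside the WT range. In bulk RNA, fewer dividing cells and less RNA of these genes per cell cannot be told apart.

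**Figure D1:**
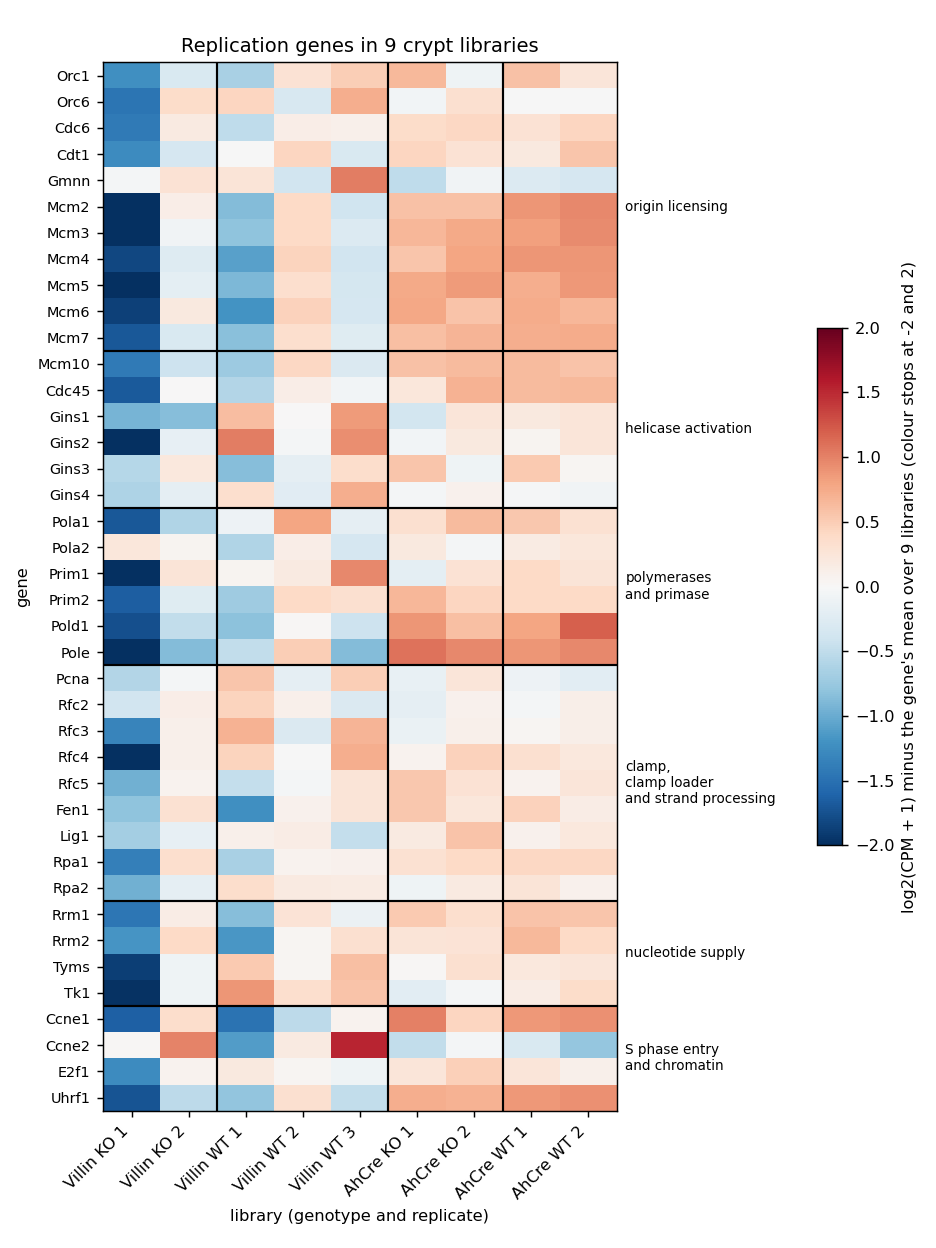
Level of each of the 40 replication genes (down the page, by role) in each of the 9 libraries (across), as log2(CPM + 1) minus the gene's mean over the 9 libraries, in colour. Villin KO 1 is the bluest column, being the lowest of the 9 libraries for 35 of the 40 genes, while the 4 AhCre columns vary little from each other.

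The median difference between Villin KO 1 and Villin KO 2 over the 40 genes was -1.36 on a log2(CPM + 1) scale, with 1 gene higher in Villin KO 1, while the pairs of Villin WT libraries had medians of -0.72, -0.45 and 0.02. Villin KO 1 was the lowest of all 9 libraries for 35 of the 40 genes, against 24.3% of all genes tested, and Villin KO 2 was the lowest for 0 of them, against 18.8%. Villin WT 1 was the lowest for 4 (14.3% of all genes) and AhCre KO 1 for 1 (9.87% of all genes). Set against the mean of the 3 Villin WT libraries on a log2(CPM + 1) scale, the median of the 40 genes was -1.33 in Villin KO 1, against -0.13 over all genes, and -0.04 in Villin KO 2, against -0.11 over all genes. Villin KO 1 lay below all 3 WT libraries for 35 genes (87.5%, against 35.7% of all genes). Villin KO 2 lay below them for 7 genes (17.5%, against 33.0% of all genes). It lay inside their range for 28 of the 40, as for 7271 of all 16250 genes, and above them for 5, as for 3615 of all 16250. Without Villin KO 1, 0 of the 40 genes were called lower in Villin by the same test, where 0.0944% of all genes were, 1 was lower at p under 0.05 before adjustment, and the median log2 fold change was -0.11, against -0.23 over all genes. Without Villin KO 2, 15 of the 40 were called lower, where 5.15% of all genes were, and the median was -1.59, against -0.29 over all genes. Those 15 were Orc6, Mcm2, Mcm3, Mcm5, Cdc45, Gins2, Pola1, Prim1, Prim2, Pole, Rfc3, Rfc4, Rpa2, Tyms and Tk1. Fitted on the Villin libraries alone, 0 of the 40 were called in either direction, where 0.256% of all genes were called lower and 1.64% higher. With either KO library left out, the remaining one is assumed to vary as the other groups do.

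**Figure D2:**
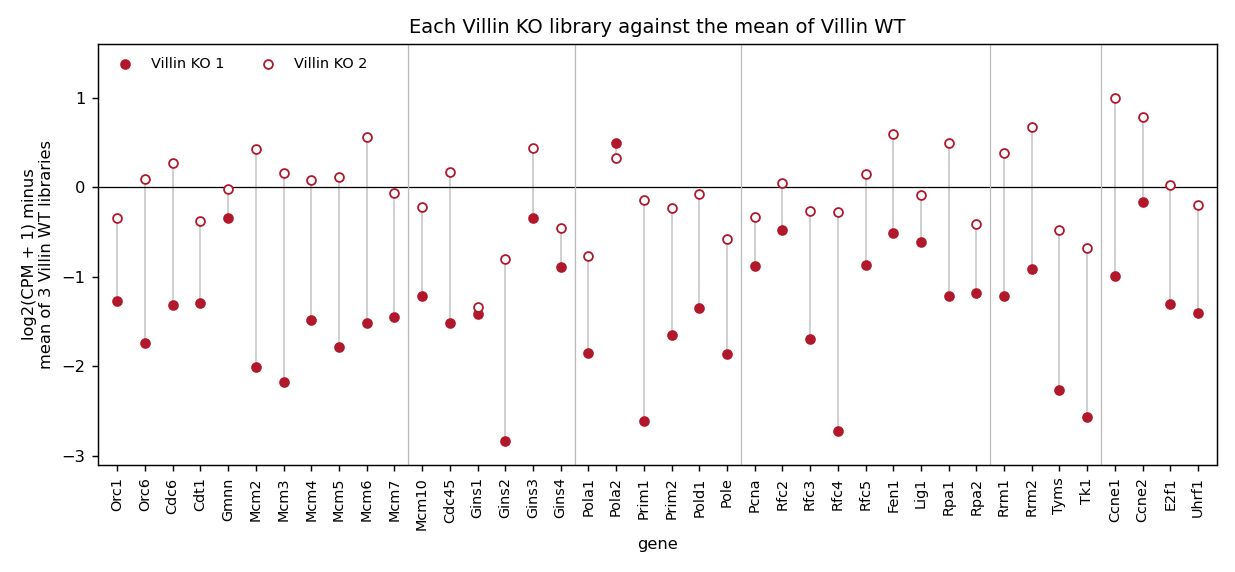
Each Villin KO library set against the mean of the 3 Villin WT libraries, per gene, on a log2(CPM + 1) scale. Filled points are Villin KO 1 (median -1.33) and open points Villin KO 2 (median -0.04), and a grey line joins the points of a gene; the points meet near -1.4 at Gins1, and at Pola2 both lie above 0.

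In AhCre crypts, 0 of the 40 genes were called in either direction, where 0% of all genes were called lower and 0.00615% higher. Before adjustment, at p under 0.05, the count was also 0 of 40, against 1.72% of all genes lower and 1.81% higher. The DESeq2 Wald test and limma-voom called 0 as well. What share of all genes these methods called in AhCre is not given here, so their 0 is not read as a result about the 40 genes. Fitted log2 fold changes were below 0 for 24 of the 40, against 50.5% of all genes. Their median was -0.06, against -0.005 over all genes, and single values ran from -0.39 for Tk1 to 0.28 for Ccne2. The 95% intervals reached as low as -1.64 and as high as 1.74, with the spread estimated over all groups together. With the AhCre libraries fitted alone, where 2.82% of all genes were called lower and 3.62% higher, 0 of the 40 were called, and the smallest adjusted p was 0.246, for Tk1. Both KO libraries lay below both WT libraries for 9 genes, namely Mcm2, Mcm3, Mcm4, Mcm7, Rpa1, Rrm1, Rrm2, Tk1 and Uhrf1, where 25.1% of all genes did. They lay above them for 2 genes, Prim2 and Rfc5, where 23.4% of all genes did. The summed level was 2006 and 2132 CPM in AhCre KO, against 2138 and 2177 CPM in AhCre WT.

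Averaged over both drivers, 0 of the 40 genes were called, where 0.197% of all genes were called lower and 0.972% higher. Gins1, Gins2 and Tk1 were lower at p under 0.05 before adjustment, where 8.49% of all genes were, and 0 were higher, where 5.37% were. DESeq2 and limma-voom also called 0, with their shares over all genes not given here. Fitted values were below 0 for 35 of the 40, against 59.1% of all genes, with a median of -0.35, against -0.09. The difference between the KO effects (AhCre minus Villin) was called for 0 of the 40, where 0.0677% of all genes were called lower and 0.00615% higher. Its median was 0.60, against 0.18 over all genes, with 4 of the 40 below 0, against 42.9% of all genes. Gins1 and Pola1 passed a p under 0.05 before adjustment, where 9.55% of all genes were higher, and 0 were lower, where 6.32% were. DESeq2 and limma-voom also called 0 of the 40 for the difference, again with their shares over all genes not given here. A different KO effect on these genes in the 2 lines was therefore not shown. Without Villin KO 2 the counts were 7 on average, where 1.77% of all genes were called lower, and 5 for the difference, where 1.07% were called higher, and without Villin KO 1 both were 0, where 0.05% of all genes were called lower on average.

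**Figure D3:**
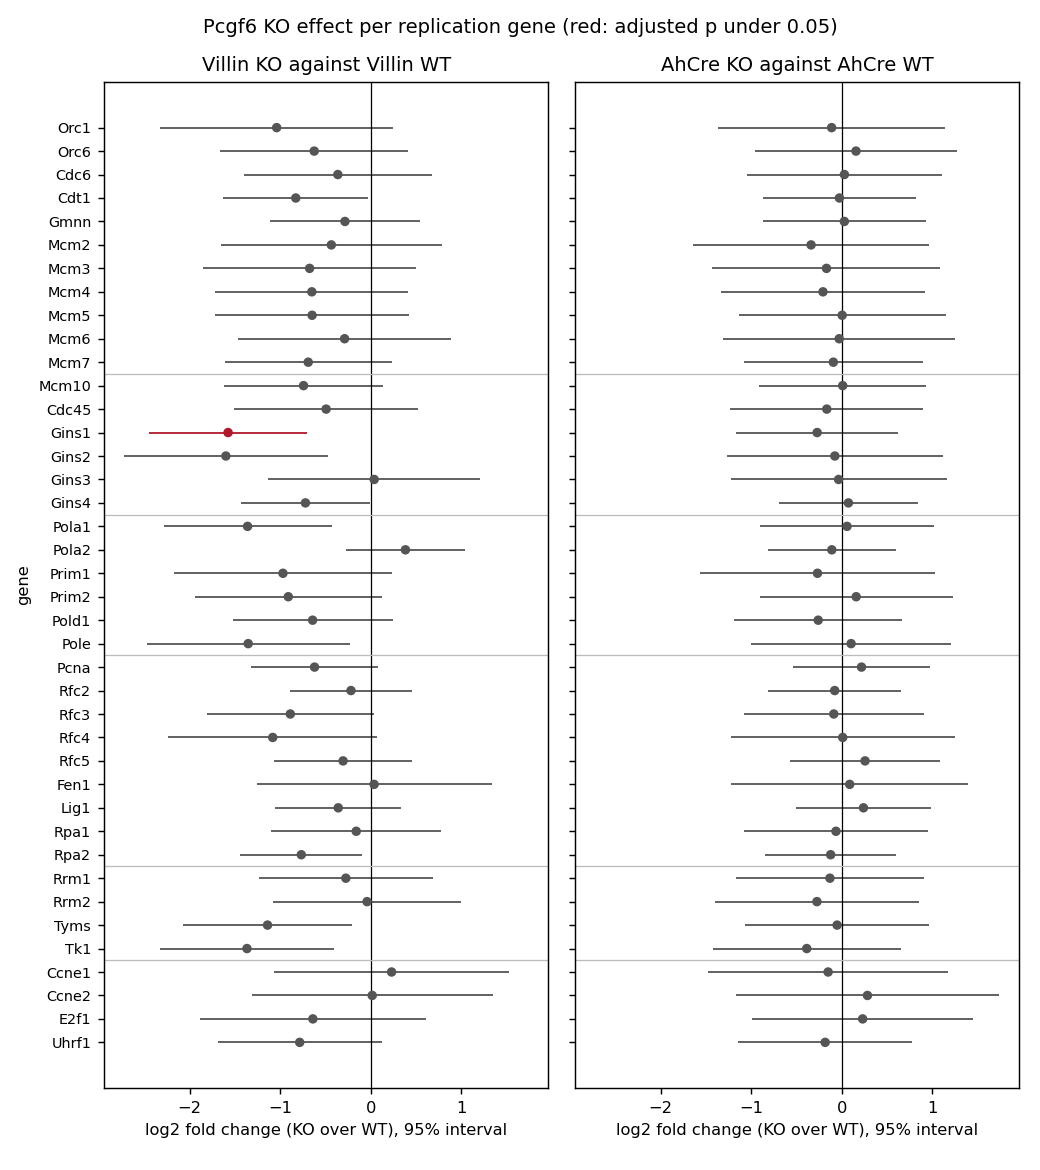
Fitted log2 fold change (KO over WT) of each replication gene with its 95% interval, in Villin (left) and AhCre (right). In Villin 35 of the 40 points lie below 0 and Gins1, in red, is the 1 gene called; in AhCre every interval includes 0.

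Promoter sequence was held by RefSeq (GRCm38.p6) for 31 of the 40 genes, from 250 bases before to 50 bases after the transcription start. Gmnn, Mcm4, Gins1, Gins2, Gins4, Prim2, Pole, Rfc2 and Ccne2 were not matched. An exact match to TTTCCCGC, TTTGGCGC, TTTCGCGC or TTTGCCGC on either strand, letters typical of E2F sites, was in 13 of the 31 (41.9%), against 2.6% of 27025 genes with a promoter of the same length. The 13 genes were Orc1, Cdc6, Cdt1, Mcm3, Mcm5, Mcm6, Mcm7, Gins3, Pola1, Pold1, Rfc3, Lig1 and Uhrf1. An E-box, CACGTG, was in 16.1%, against 8.09%, and a CCAAT box in 61.3%, against 41.1%. Windows of 60 bases upstream of the start are shown for Mcm5, Mcm6 and Pola1, with the matches in capitals. They show how such letters sit before 2 licensing genes and a polymerase gene. Villin KO 1 was the lowest library for these 3 genes, as it was for 35 of the 40. Mcm6 has 3 matches in all, of which the window shows the one nearest the start. In Mcm5 a pair of matches overlaps in 1 run, and those of Mcm5 and Pola1 include the TTTGGCGC letters read on the other strand.
Mcm5 (chr8:75109332-75109391, plus strand): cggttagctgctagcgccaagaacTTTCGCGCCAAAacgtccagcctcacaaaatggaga
Mcm6 (chr1:128359719-128359778, minus strand): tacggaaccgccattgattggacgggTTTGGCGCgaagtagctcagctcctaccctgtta
Pola1 (chrX:93632260-93632319, minus strand): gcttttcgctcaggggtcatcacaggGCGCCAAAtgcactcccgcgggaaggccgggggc
The median Villin log2 fold change was -0.67 over the 13 genes with a match and -0.56 over the 18 without, which is a description only. Against the WT mean, the genes with a match had a median of -1.41 in Villin KO 1 and -0.08 in Villin KO 2, and those without had -1.21 and 0.12. The medians of both groups were below 0 in Villin KO 1. Only exact matches to these letters were counted, so a gene without a match may still hold an E2F site. A part of E2F factors in these values was not tested.

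Among the 11 origin licensing genes, 0 were called in either driver, and all 11 had a Villin log2 fold change below 0, with a median of -0.65. Against the Villin WT mean, on a log2(CPM + 1) scale, their median was -1.48 in Villin KO 1 and 0.09 in Villin KO 2. Villin KO 2 lay below that mean for 4 of the 11, so the low role median rests on Villin KO 1. Mcm6, a subunit of the MCM helicase and the licensing gene with the highest CPM, had 30.9 and 133 CPM in Villin KO, against 50.1, 159 and 91.3 CPM in Villin WT. Villin KO 1 was the lowest of the 9 libraries, and Villin KO 2 lay within the WT range. Mcm6 had 199 and 174 CPM in AhCre KO, against 195 and 185 CPM in AhCre WT, and the groups overlapped. For Mcm6 the log2 fold change was -0.29 (SE 0.54, adjusted p = 0.775) in Villin and -0.03 (SE 0.59, adjusted p = 1) in AhCre. Mcm7, another helicase subunit, had 17.8 and 48.3 CPM in Villin KO, against 33.3, 76.5 and 50.7 CPM in Villin WT, again with Villin KO 2 inside the WT range. Mcm7 had 91.6 and 97.2 CPM in AhCre KO, against 100.1 and 101 CPM in AhCre WT, where both KO libraries were slightly below both WT libraries, and its log2 fold changes were -0.69 (SE 0.43, adjusted p = 0.333) and -0.09 (SE 0.46, adjusted p = 1).

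Gmnn encodes geminin, which binds CDT1 and so prevents a second round of licensing. It had 77.9 and 97.6 CPM in Villin KO, against 95.98, 61.2 and 164 CPM in Villin WT, and both KO libraries lay inside the WT range. It had 55.6 and 76.2 CPM in AhCre KO, against 65.9 and 63.2 CPM in AhCre WT, also with overlap, and AhCre KO 1 was its lowest library of the 9. The fitted log2 fold change was -0.28 (SE 0.38, adjusted p = 0.672) in Villin and 0.03 (SE 0.41, adjusted p = 1) in AhCre. Orc1, the largest subunit of the origin recognition complex, had the largest Villin fold change of the role. It had 1.23 and 3.24 CPM in Villin KO, against 2.34, 5.39 and 6.36 CPM in Villin WT, so the second KO library lay inside the WT range. It had 7.195 and 3.903 CPM in AhCre KO, against 6.84 and 5.15 CPM in AhCre WT, and the groups overlapped. The log2 fold change was -1.04 (SE 0.59, adjusted p = 0.289) in Villin and -0.11 (SE 0.58, adjusted p = 1) in AhCre.

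Of the other licensing genes, Cdt1, the MCM loading factor, is named because both Villin KO libraries were below Villin WT, a choice made after its values were seen. Cdt1 had 10.2 and 20.2 CPM in Villin KO, against 25.7, 35.02 and 20.6 CPM in Villin WT, so the second KO library was just under the lowest WT library. Its Villin log2 fold change was -0.83 (SE 0.37, adjusted p = 0.185). Mcm2, Mcm3, Mcm4 and Mcm5, the remaining helicase subunits among the 40, had Villin log2 fold changes of -0.44, -0.67, -0.65 and -0.65. Villin KO 1 had 7.38, 9.01, 10.04 and 12.3 CPM of these 4 genes, and Villin KO 2 had 43.96, 49.5, 31.6 and 48.6 CPM. Each of them was thus lower in Villin KO 1 than in Villin KO 2. Orc6 and Cdc6, which act in loading the helicase, had Villin log2 fold changes of -0.62 and -0.36.

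Among the 6 helicase activation genes, 1 was called lower in Villin, where 2.88% of all genes were, and 0 in AhCre, where 0% were. It was the only call among all 40 genes, so it is not read as a trait of this role. The Villin median of the 6 genes was -0.73. Their median against the Villin WT mean, on a log2(CPM + 1) scale, was -1.31 in Villin KO 1 and -0.34 in Villin KO 2. Gins1, a subunit of the GINS complex, had 4.92 and 5.24 CPM in Villin KO, against 16.2, 10.3 and 19.3 CPM in Villin WT. Those levels rest on 24 and 34 counts in Villin KO, and on 90, 80 and 100 counts in Villin WT. Both KO libraries were below all WT libraries and differed by only 0.08 on a log2(CPM + 1) scale, Villin KO 1 being the lower. Gins1 fell in Villin KO, with a log2 fold change of -1.58 (SE 0.40, adjusted p = 0.045) and a 95% interval of -2.45 to -0.70. The call did not survive the loss of either KO library, with an adjusted p of 0.15 where Villin KO 1 was left out and 0.0663 where Villin KO 2 was, although the log2 fold change stayed at -1.51 and -1.63. Of the fits that left out 1 library, the call was kept only without Villin WT 2. Gins1 also kept it with either other low-count filter and the DESeq2 Wald test. It lost the call with DESeq2 size factors, limma-voom, the replicate block and the Villin libraries fitted alone. Over all alternatives its adjusted p ran between 0.0169 and 0.257. Gins1 had 7.68 and 12.3 CPM in AhCre KO, against 11.8 and 12.3 CPM in AhCre WT, with overlap, and its AhCre log2 fold change was -0.27 (SE 0.41, adjusted p = 1). The difference between the drivers was 1.30 (SE 0.58, adjusted p = 0.302).

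Gins2, another GINS subunit, had 5.12 and 24.1 CPM in Villin KO, against 55.7, 26.3 and 52.4 CPM in Villin WT. Both KO libraries were below WT, the second only just, and the log2 fold change was -1.60 (SE 0.52, adjusted p = 0.0908). It had 25.9 and 31.1 CPM in AhCre KO, against 28.2 and 31.9 CPM in AhCre WT, with overlap, and an AhCre log2 fold change of -0.08 (SE 0.55, adjusted p = 1). Gins2 shares 67.3% of its exon positions with Gse1, so its counts are uncertain. Gins4 had 30.1 and 41.3 CPM in Villin KO, against 59.5, 39.6 and 78.03 CPM in Villin WT, with the second KO library at the low end of the WT range, and 45.4 and 49.9 CPM in AhCre KO, against 45.9 and 44.6 CPM in AhCre WT. The log2 fold change of Gins4 was -0.72 (SE 0.33, adjusted p = 0.194) in Villin and 0.07 (SE 0.35, adjusted p = 1) in AhCre.

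Mcm10, which helps the activated helicase unwind origins, had 9.42 and 19.7 CPM in Villin KO, against 15.8, 35.8 and 21.8 CPM in Villin WT, with Villin KO 2 inside the WT range. It had 40.7 and 41.7 CPM in AhCre KO, against 41.8 and 40.05 CPM in AhCre WT, where all 4 libraries were close. The fitted log2 fold change was -0.74 (SE 0.40, adjusted p = 0.271) in Villin and 0.01 (SE 0.43, adjusted p = 1) in AhCre. Cdc45, the helicase cofactor, had a Villin log2 fold change of -0.49, and Gins3 had 0.04.

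Among the 6 polymerase and primase genes, 0 were called, and the Villin median of -0.94 was the lowest of the 6 roles. Set against the Villin WT mean on a log2(CPM + 1) scale, the median was -1.75 in Villin KO 1 and -0.19 in Villin KO 2. In Villin KO 2 the helicase activation genes had a lower median, at -0.34. Pola1, the catalytic subunit of polymerase alpha, which begins each new strand, had 5.94 and 13.7 CPM in Villin KO, against 19.8, 37.7 and 18.7 CPM in Villin WT. Both KO libraries were below all WT libraries. Its log2 fold change was -1.36 (SE 0.43, adjusted p = 0.0812) in Villin. It had 27 and 33.6 CPM in AhCre KO, against 31.6 and 26.5 CPM in AhCre WT, with overlap, and the AhCre log2 fold change was 0.06 (SE 0.44, adjusted p = 1). The difference between the drivers was 1.42 (SE 0.62, adjusted p = 0.297), with an unadjusted p of 0.0408. Pola2, the accessory subunit of the same polymerase, had a Villin value of the other sign. It had 52.9 and 47.05 CPM in Villin KO, against 29.5, 49.8 and 35.5 CPM in Villin WT, so Villin KO 1 was above all 3 WT libraries and Villin KO 2 inside their range. It had 51.8 and 44.1 CPM in AhCre KO, against 50.6 and 52.9 CPM in AhCre WT, and its log2 fold change was 0.38 (SE 0.30, adjusted p = 0.442) in Villin and -0.11 (SE 0.33, adjusted p = 1) in AhCre.

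Prim1, the catalytic subunit of primase, had 7.79 and 47.8 CPM in Villin KO, against 41.3, 45.3 and 78.03 CPM in Villin WT. The low value was in Villin KO 1 only, since Villin KO 2 lay inside the WT range. It had 34.6 and 48.8 CPM in AhCre KO, against 52.5 and 47.9 CPM in AhCre WT, with overlap. The fitted log2 fold change was -0.97 (SE 0.55, adjusted p = 0.298) in Villin and -0.27 (SE 0.60, adjusted p = 1) in AhCre. Pold1, the catalytic subunit of polymerase delta, had 9.42 and 24.1 CPM in Villin KO, against 18.9, 34.6 and 25.2 CPM in Villin WT, and 63.9 and 52.2 CPM in AhCre KO, against 59.5 and 79.4 CPM in AhCre WT. Overlap was seen in both drivers, and the log2 fold changes were -0.64 (SE 0.41, adjusted p = 0.345) and -0.26 (SE 0.43, adjusted p = 1). Pole, the catalytic subunit of polymerase epsilon, had a Villin log2 fold change of -1.35, and Prim2, the regulatory subunit of primase, had -0.91.

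Among the 9 genes of the clamp, its loader and strand processing, 0 were called, and the Villin median was -0.36. Their median against the Villin WT mean, on a log2(CPM + 1) scale, was -0.88 in Villin KO 1 and -0.09 in Villin KO 2. Pcna, the sliding clamp and a common marker of dividing cells, had 60.03 and 88.4 CPM in Villin KO, against 134, 80.3 and 129 CPM in Villin WT. Villin KO 1 was the lowest of the 9 libraries and Villin KO 2 lay inside the WT range. It had 81.7 and 108 CPM in AhCre KO, against 84.3 and 78.5 CPM in AhCre WT, with overlap, and its log2 fold change was -0.62 (SE 0.32, adjusted p = 0.251) in Villin and 0.22 (SE 0.35, adjusted p = 1) in AhCre. Rfc4, a subunit of the clamp loader, had 7.38 and 44.4 CPM in Villin KO, against 56.1, 40.9 and 68.98 CPM in Villin WT. Only Villin KO 1 was low. It had 43.2 and 56.9 CPM in AhCre KO, against 51.5 and 47.7 CPM in AhCre WT, and its log2 fold changes were -1.08 (SE 0.53, adjusted p = 0.231) and 0.01 (SE 0.57, adjusted p = 1).

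Rfc2, another loader subunit, had 67.2 and 97.2 CPM in Villin KO, against 120.1, 94.7 and 72.3 CPM in Villin WT, and Villin KO 1 was lower than the lowest WT library by little. It had 77.9 and 94.01 CPM in AhCre KO, against 86.1 and 95.2 CPM in AhCre WT, and its log2 fold changes were -0.22 (SE 0.31, adjusted p = 0.693) and -0.08 (SE 0.34, adjusted p = 1). Rfc5, also a loader subunit, had 34.8 and 71.9 CPM in Villin KO, against 49.2, 66.7 and 82.3 CPM in Villin WT. Its AhCre levels were 100.2 and 83.7 CPM in AhCre KO, against 72.3 and 81.5 CPM in AhCre WT, so both KO libraries were above both WT libraries. Its log2 fold change was -0.31 (SE 0.35, adjusted p = 0.617) in Villin and 0.26 (SE 0.38, adjusted p = 1) in AhCre. Rpa2, a subunit of the single-strand binding protein, is named after its values were seen, because its Villin groups did not overlap. It had 20.9 and 36.4 CPM in Villin KO, against 53.2, 46.8 and 46.6 CPM in Villin WT, with a log2 fold change of -0.77 (SE 0.31, adjusted p = 0.15). Rpa1, another subunit of it, Rfc3 of the loader, the ligase Lig1 and the flap nuclease Fen1 had Villin log2 fold changes of -0.16, -0.89, -0.36 and 0.04. Fen1 shares 84.2% of its exon positions with other genes, so its counts are uncertain.

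Among the 4 nucleotide supply genes, 0 were called, and the Villin median was -0.71. Their median against the Villin WT mean, on a log2(CPM + 1) scale, was -1.74 in Villin KO 1 and -0.05 in Villin KO 2. Tk1, thymidine kinase, had 13.5 and 52.8 CPM in Villin KO, against 104, 71.1 and 83.04 CPM in Villin WT. It had 48.2 and 54.5 CPM in AhCre KO, against 61.99 and 72.1 CPM in AhCre WT. Tk1 was the 1 gene of the 40 with both KO libraries below all WT libraries in each driver. Over all genes, 19.8% were so in Villin and 25.1% in AhCre, and the share in both drivers together was not counted. This is therefore not read as a trait of Tk1. For Tk1 the log2 fold change was -1.37 (SE 0.44, adjusted p = 0.0907) in Villin, -0.39 (SE 0.48, adjusted p = 1) in AhCre and -0.88 (SE 0.33, adjusted p = 0.257) on average, so it did not pass. Tyms, thymidylate synthase, had 22.7 and 80.98 CPM in Villin KO, against 124, 89.03 and 131 CPM in Villin WT, also without overlap. It had 87.96 and 107 CPM in AhCre KO, against 99.6 and 103 CPM in AhCre WT, with overlap. For Tyms the log2 fold change was -1.14 (SE 0.43, adjusted p = 0.131) in Villin and -0.05 (SE 0.47, adjusted p = 1) in AhCre.

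Rrm1, the large subunit of ribonucleotide reductase, had 23.6 and 73.3 CPM in Villin KO, against 36.1, 79.7 and 60.3 CPM in Villin WT, and Villin KO 2 lay near the top of the WT range. It had 94.3 and 83.4 CPM in AhCre KO, against 97.8 and 96.6 CPM in AhCre WT, with both KO libraries below WT. Its log2 fold change was -0.28 (SE 0.44, adjusted p = 0.731) in Villin and -0.13 (SE 0.48, adjusted p = 1) in AhCre. Rrm2, the small subunit, had log2 fold changes of -0.04 in Villin and -0.27 in AhCre. In Villin both KO libraries lay below WT for Tk1 and Tyms, and the groups overlapped for both reductase genes. Over all genes 19.8% lay below WT in this way, as did 7 of the 40 genes, so no difference between these genes is read from it. Villin KO 2 was closer to WT than Villin KO 1 for both Tk1 and Tyms.

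Among the 4 genes of S phase entry and chromatin, 0 were called, and the Villin median was -0.31. Their median against the Villin WT mean, on a log2(CPM + 1) scale, was -1.15 in Villin KO 1 and 0.40 in Villin KO 2. Uhrf1, which keeps DNA methylation in place as DNA is copied, had 11.5 and 27.9 CPM in Villin KO, against 22.8, 50.9 and 28.3 CPM in Villin WT. Villin KO 2 lay inside the WT range, near its low end. It had 67.5 and 66.3 CPM in AhCre KO, against 74.4 and 77.4 CPM in AhCre WT, with both KO libraries below WT, and its log2 fold changes were -0.78 (SE 0.42, adjusted p = 0.261) and -0.18 (SE 0.44, adjusted p = 1). Ccne1 and Ccne2 encode cyclin E, the partner of CDK2 at the start of S phase. Ccne1 had 3.28 and 15.9 CPM in Villin KO, against 3.77, 8.21 and 12.9 CPM in Villin WT, so Villin KO 1 was the lowest and Villin KO 2 the highest of the Villin libraries. It had 25.6 and 16.8 CPM in AhCre KO, against 23.2 and 23.9 CPM in AhCre WT, with overlap, and log2 fold changes of 0.23 (SE 0.60, adjusted p = 0.835) and -0.15 (SE 0.61, adjusted p = 1).

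Ccne2 had 15.6 and 31.2 CPM in Villin KO, against 6.47, 17.4 and 45.9 CPM in Villin WT, and both KO libraries lay inside a wide WT range. It had 10.5 and 14.7 CPM in AhCre KO, against 12.2 and 8.502 CPM in AhCre WT, and log2 fold changes of 0.02 (SE 0.61, adjusted p = 0.99) and 0.28 (SE 0.67, adjusted p = 1). E2f1, an activating E2F factor, was near the lower limit of measurement, at 0.819 CPM (4 counts) in Villin KO 1, and had a Villin log2 fold change of -0.64. Per kilobase of exon, mean levels over the 9 libraries ran from 1.12 CPM for E2f1, 1.33 for Orc1 and 1.54 for Pole up to 35.8 for Gins4, 39.1 for Pcna and 57.5 for Gmnn. By this measure E2f1 and Orc1 had the lowest values and Gmnn the highest. The length used was that of each gene's annotated exons, and the length of the messenger present in these crypts was not measured. The abundance of the messengers is therefore not ranked.

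Further replication genes outside the 40, the E2F, cyclin and CDK regulators, and mitosis genes were set beside them. Of 50 other replication and S phase genes, 2 were called lower in Villin and 0 higher, where 2.88% of all genes were called lower and 3.33% higher. Their median log2 fold change was -0.83, against -0.18 over all genes. The 2 called genes were Ticrr, which helps CDC45 onto the helicase, at -2.33 (SE 0.55, adjusted p = 0.0318), and Dbf4, the activator of the CDC7 kinase, at -1.49 (SE 0.37, adjusted p = 0.0411). Ticrr had 0.615 and 1.697 CPM in Villin KO, against 6.29, 7.697 and 4.05 CPM in Villin WT, and Dbf4 had 4.097 and 4.78 CPM in Villin KO, against 13.3, 15.01 and 9.06 CPM in Villin WT, so both KO libraries were low for each. Of 31 regulators tested, 1 was called lower and 0 higher, with a median of -0.48, so the called counts of both lists were near the share over all genes. E2f2, an activating E2F factor, was the gene, and it had 9.83 and 12.03 CPM in Villin KO, against 33.97, 42.8 and 35.6 CPM in Villin WT. Its log2 fold change was -1.77 (SE 0.29, adjusted p = 0.0115) in Villin and -1.01 (SE 0.21, adjusted p = 0.0445) on average, and it had 57.2 and 54.03 CPM in AhCre KO, against 59.3 and 72.04 CPM in AhCre WT. E2f2 was thus low in both Villin KO libraries. Without Villin KO 1 it was called neither in Villin, at an adjusted p of 0.0712, nor on average, at 0.127.

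Of 30 mitosis and G2 genes, 4 were called lower in Villin and 0 higher, against the same 2.88% and 3.33% of all genes. Their median was -1.16, against -0.18 over all genes, and all 30 were below 0, against 58.5% of all genes. The 4 called genes were Hmmr, a spindle protein, Mki67, the Ki-67 antigen of dividing cells, and Cenpf and Cenpe, both kinetochore proteins. Mki67 had 19.1 and 20.7 CPM in Villin KO, against 98.3, 118 and 49.1 CPM in Villin WT, and its log2 fold change was -2.16 (SE 0.36, adjusted p = 0.0131). Hmmr, Cenpf and Cenpe had log2 fold changes of -2.26, -2.52 and -2.02. Villin KO 2 lay below all 3 WT libraries for 19 of the 30 mitosis genes (63.3%), against 7 of the 40 replication genes (17.5%) and 33.0% of all genes. In AhCre 0 genes of these 3 lists were called in the fit of all 9 libraries, with medians of -0.04, 0.03 and -0.10. Without Villin KO 1 none of the 3 lists had a called gene in Villin, with 0 of 50, 0 of 31 and 0 of 30, while 17 of 18016 genes were called lower, and with the Villin libraries fitted alone the counts were 0, 0 and 1. Without Villin KO 1 the median of the mitosis genes was -0.52, with all 30 still below 0. Without Villin KO 2, 20 of the 50, 8 of the 31 and 27 of the 30 were called lower in Villin, where 5.15% of all genes were, and 2 regulators were called higher, where 5.87% were. The median of the mitosis genes was then -2.34.

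Apart from E2f2 on average, no gene of these 3 lists was called in AhCre, on average or for the difference between the drivers in the fit of all 9 libraries. In AhCre the smallest p-values of the other replication genes belonged to Chaf1a, a chromatin assembly factor, at a log2 fold change of -0.72, and Recql4, a replication helicase, at -0.70. Among the regulators they belonged to Mga, a PRC1.6 subunit, at 1.00, and the CDK inhibitor Cdkn1c, at 1.39, and among the mitosis genes to the kinesin Kif20a, at -0.65, and Mki67, at 0.31. Mga had 57.3 and 58.1 CPM in AhCre KO, against 32.6 and 25.1 CPM in AhCre WT, so both KO libraries were above WT, and its adjusted p was 1 in that fit. With the AhCre libraries fitted alone it was called higher, at an adjusted p of 0.00159, as the only one of the 31 regulators, and no gene of the other 2 lists was called. On average, the smallest p-values belonged to Ticrr, at a log2 fold change of -1.34, Chaf1a at -1.06, Hmmr at -1.11 and Cenpf at -1.28. For the AhCre minus Villin difference in log2 fold change they belonged to Rfc1, the large subunit of the clamp loader, at 1.40, Dbf4 at 1.46, E2f2 at 1.53, Mga at 1.28, Mki67 at 2.46 and Hmmr at 2.28, with adjusted p between 0.105 and 0.246.

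The summed level of the 30 mitosis genes was 328 and 1052 CPM in Villin KO, against 1512, 1686 and 1609.8 CPM in Villin WT. The replication sum divided by the mitosis sum was 2.13 and 1.56 in Villin KO, against 1.01, 1.07 and 1.19 in Villin WT. The ratio was 1.11 in both AhCre KO libraries, against 1.05 and 1.18 in AhCre WT. Both Villin KO libraries were therefore above the other 7 libraries, and the AhCre groups overlapped. The ratio of the 50 other replication genes to the mitosis genes was 3.38 and 1.92 in Villin KO, against 1.40, 1.15 and 1.54 in Villin WT. No test of the ratio was made.

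**Figure D4:**
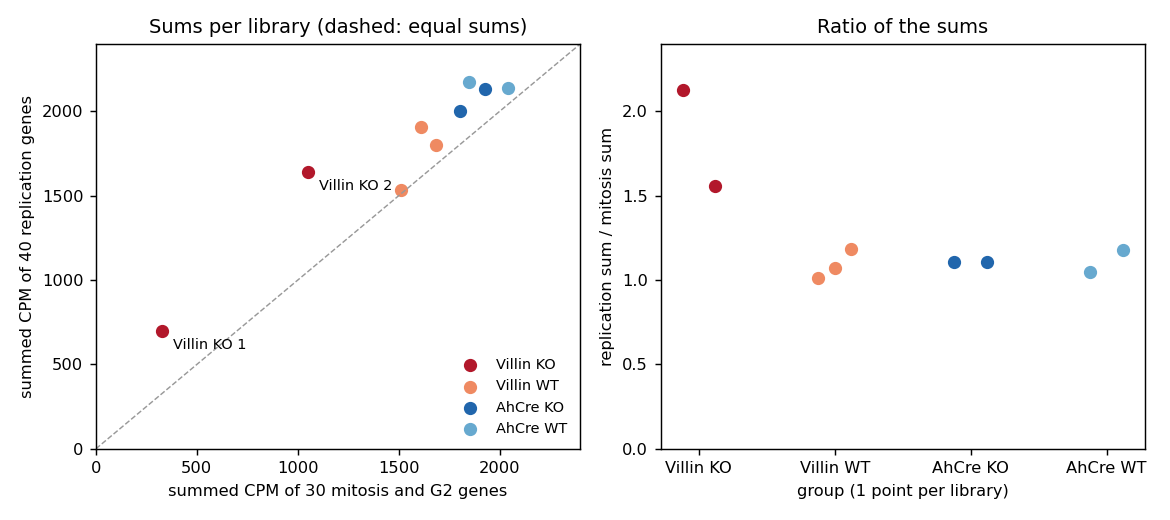
Left, summed CPM of the 40 replication genes against summed CPM of 30 mitosis and G2 genes, 1 point per library, with a dashed line at equal sums. Right, the ratio of the sums by group; the Villin KO libraries, at 2.13 and 1.56, lie above the other 7, which lie between 1.01 and 1.19.

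Markers of some other cell types differed between Villin KO and Villin WT libraries, and others overlapped. The 16 absorptive enterocyte markers, which mark the nondividing cells of the villus, summed to 75176 and 48651 CPM in Villin KO, against 35173, 21700.2 and 36128 CPM in Villin WT, so the library with the lowest replication sum had the highest enterocyte sum. Of these 16, 10 were called higher in Villin. The 13 crypt base stem cell markers summed to 701 and 1779 CPM in Villin KO, against 1281, 2852 and 2566 CPM in Villin WT, with 3 called lower and Villin KO 2 inside the WT range. The 12 tuft cell markers summed to 3784 and 598 CPM in Villin KO, against 119.9, 91.5 and 202 CPM in Villin WT, and all 12 were called higher. In AhCre the tuft sum was 1087 and 999.5 CPM in KO, against 189 and 189 CPM in WT, while the enterocyte sum was 9812 and 9579 CPM in KO, against 12115 and 10806 CPM in WT. In AhCre KO the tuft sum was above WT, while the replication sum was slightly below WT. Other AhCre sums were apart too, among them Paneth, at 13569 and 14514 CPM in KO, against 8264 and 7314 CPM in WT. The AhCre stromal sum was 83.7 and 84.8 CPM in KO, against 173 and 177 CPM in WT. The 10 epithelial markers summed to 25556.5 and 19537 CPM in Villin KO, against 13952, 11621 and 12881 CPM in Villin WT. The 12 leukocyte markers summed to 393 and 1064 CPM in Villin KO, against 209, 48.9 and 489 CPM in Villin WT, and the 15 stromal markers to 193 and 221 CPM, against 195, 33.9 and 34.7 CPM. In both lists Villin KO 1 was inside the WT range. The Paneth, goblet and enteroendocrine sums also overlapped between Villin KO and Villin WT. The tuft marker Il25 was at 0 in Villin WT 1 and Villin WT 3, and of the 15 stromal markers 14 and 13 had counts in Villin KO, against 13, 14 and 13 in Villin WT. The part of these cell types in the replication values was not tested.

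Some replicates of 1 group also differed with gene length. Between Villin WT 3 and Villin WT 2, the 20 shorter replication genes had a median log2 difference of 0.56, with 14 higher in Villin WT 3, and the 20 longer ones -0.46, with 5 higher. Spearman's rho between annotated exon length and that difference was -0.594 over the 40 genes and -0.385 over all 16250 genes tested, the largest size over the 40 genes among the 6 pairs of replicates. Between Villin WT 1 and Villin WT 2 it was -0.304 and -0.428, and between Villin WT 1 and Villin WT 3 it was 0.20 and 0.00092. Genes of 1 library share its depth and RNA, so these are descriptions across genes. Between Villin KO 1 and Villin KO 2 rho was -0.174 over the 40 genes and, with the other sign, 0.173 over all genes, and the medians were -1.22 for the shorter and -1.40 for the longer genes, so the gap between the KO libraries was of like size among shorter and longer genes. Between the AhCre libraries rho over the 40 genes was 0.258 in KO and -0.388 in WT, against 0.244 and 0.0072 over all genes, where the members' differences were small, at a median size of 0.25 and 0.10.

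**Figure D5:**
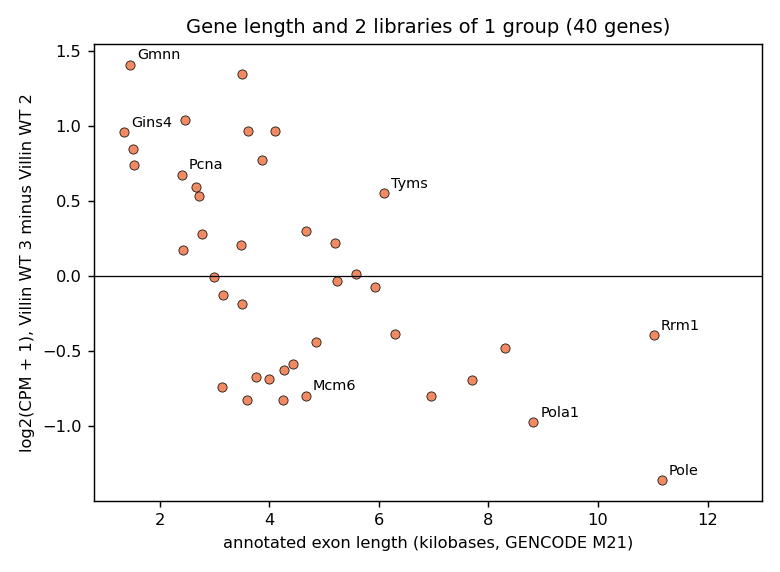
Annotated exon length of the 40 replication genes in kilobases (GENCODE M21) against the log2(CPM + 1) difference between Villin WT 3 and Villin WT 2, 1 point per gene. Shorter genes such as Gmnn and Gins4 lie above 0 and longer genes such as Pola1 and Pole below it (Spearman's rho -0.594).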

How the data were processed

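Crypts were isolated and 2 ng of RNA per library went into Smart-seq2, which does not mark the strand, per the labels' protocols. The authors deposited raw read counts per gene for each library. The tools named by the submitters' processing notes are STAR 2.7, featureCounts and DESeq2 1.20, with mm10 or GRCm38 as build; settings and annotation were not given in the sources used here. GENCODE M21 held every gene name of the files (100%), and it gave coordinates, exon lengths and overlapping exons. Of the 40 genes, 14 share exon positions with another gene, and without strand such reads cannot be told apart; Pcna and Tyms have annotated pseudogenes.

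Here edgeR 4.0.16 (R 4.3.3) was run on the counts, with filterByExpr on the 4 groups, TMM scaling, quasi-likelihood fitting of 1 mean per group to all 9 libraries (degrees of freedom 5 residual and 7.43 prior, biological variation coefficient 0.332) and Benjamini-Hochberg adjustment over 16250 genes. Contrasts were KO minus WT in each driver, their mean and their difference. The procedure was tested on simulated data. Log2 levels use log2(CPM + 1). Replicate libraries differed by far more than counting noise (chi-square per degree of freedom 6.48 to 63.6). Alternatives were DESeq2 size factors, other low-count filters, the DESeq2 1.42.0 Wald test, limma 3.58.1 voom with sample weights, fits of 1 driver, a replicate block, an adjusted p under 0.1 and each library left out. The 40 genes, their roles and the other lists were chosen with earlier results of these data known. Values in every library are given for the 3 genes of each role with the highest CPM, called genes and the gene with the largest Villin fold change. Of the other pathway lists, up to 4 called genes per contrast are named, or, with none, the 2 with the smallest p.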

Additional observations from a re-analysis of the deposited data

How the results depend on the processing

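No replication gene reversed a called direction. The count called lower in Villin, 1, became 4 at an adjusted p under 0.1 and 4 without a low-count filter (Gins1, Gins2, Tk1 and Pola1), 2 with the DESeq2 Wald test (Gins1 and Gins2), and 0 with DESeq2 size factors, limma-voom or Villin libraries fitted alone. Shares over all genes are not given here for an adjusted p under 0.1, no low-count filter or the DESeq2 Wald test. Those counts are therefore not read as a result about the replication genes. The count called lower in Villin ranged between 0 and 15 with a library left out, and the cause was not tested. With a library left out, the Villin median of -0.64 ranged between -1.59 and -0.11, the average count between 0 and 7, the average median between -0.87 and -0.050, the difference count between 0 and 5 and its median between 0.11 and 1.46; the lowest and highest came from leaving out a Villin KO library. Leaving out Villin WT 2 moved the Villin median to -0.25. The AhCre median ranged between -0.073 and 0.032, being above 0 only without AhCre KO 1, and was -0.017 without a low-count filter. Of 680 values of single genes in Villin, 612 kept sign and side of the threshold, 36 changed sign uncalled, 13 lost a call and 19 gained one. All 13 lost calls were those of Gins1, the 1 gene called in the main fit. In AhCre 637 of 680 and on average 589 of 640 kept both. The main fit called 0 of the 40 genes there, so no call could be lost. Most kept values belong to genes that were never called, so these tallies do not measure how stable a call is.

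Over all genes in Villin, 468 lower and 541 higher calls became 388 and 704 with DESeq2 size factors, 6 and 132 with limma-voom and 35 and 224 fitted alone, and the median over all genes moved to -0.08 with DESeq2 size factors, against -0.18. In AhCre 0 and 1 became 458 and 588 fitted alone.

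Whether replicate numbers pair the samples could not be decided. Deviations of same-numbered libraries from their group means correlated at 0.075 and -0.199 in Villin and -0.162 in AhCre. In a group of 2 libraries the deviations mirror each other, so each AhCre value is the same number with a fixed sign. Villin WT 3 has no KO library of its number. With the replicate block, 0 of the 40 genes were called in Villin, with 12 lower and 1 higher at p under 0.05 before adjustment, where 14.6% of all genes were lower and 10.8% higher. With the AhCre numbers crossed, chosen after seeing the data, 0 were called, with 14 lower and 1 higher, where 15.1% and 11% of all genes were. With 2 or 3 libraries per group, the spread between libraries limits what can be called; E2f1 with 4 and Orc1 with 6 counts in Villin KO 1 are also limited by counting.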
